A study of Canis lupus familiaris with 30 samples.

Results

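The axon guidance ligands and receptors were described here across 30 primary canine thyroid carcinomas, each sequenced once. Members were chosen by gene symbol: the semaphorins (*SEMA*) and their plexin receptors (*PLXN*), the ephrins (*EFNA*, *EFNB*) and their Eph receptors (*EPHA*, *EPHB*), the slits and robos, the netrins *NTN1* and *NTN4*, and the netrin receptors *DCC*, *NEO1* and *UNC5A* to *UNC5D*. The rule gave 60 genes of the 30424 in the count table, comprising 20 semaphorins, 9 plexins, 5 ephrins, 11 ephrin receptors, 3 slits, 4 robos, 2 netrins and 6 netrin receptors. The rule left out 2 further Eph receptors and the SLITRK genes.

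The study included follicular and medullary carcinomas. The sample labels give thyroid gland and tumor tissue for all 30 tumors and no class, treatment, age or batch. Tumors were therefore not divided into classes, no group was compared with another, and each tumor is called by its library name. No normal thyroid was analysed here. The p-values below come from permutations of single tumors, each with its own library, and belong to correlations across tumors.

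The total count per tumor lay between 12288945 and 45148677, with a median of 25569678. A level is the log2 of 1 plus the count after division by a size factor, which sets the tumors to 1 scale. The size factor was lowest in TC538, at 0.279, and TC538 held the highest level of 20% of all genes that passed the count filter. The correlations and most counts of members were therefore repeated without this library. Ranges and variances of single genes include it. A count of 0 allows up to 3 counts, which is a level of at most 1.51 in TC1218 and 3.56 in TC538. This limit covers counting error only. Levels were not compared between genes, because no transcript lengths were used.

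The labelled tissue was checked against its markers. The level of *TG*, the thyroglobulin precursor of thyroid hormone, reached 22.65 in TC1869 and was 3.70 in TC1088, 6.18 in TC1020 and 6.40 in TC2289. A score over 10 thyrocyte markers, the mean of their levels after subtraction of each gene's median, ran from -9.04 in TC1088 to 2.65 in TC1869. A score over 8 measured C cell markers was 9.69 in TC1020, 9.48 in TC1936, 8.61 in TC1601, 8.29 in TC1473 and 6.58 in TC2289. It was 4.40 in TC22 and at most 1.98 in the other tumors. C cells are the calcitonin-producing neuroendocrine cells of the thyroid. The calcitonin gene *CALCA*, a marker in this score, was at 6.94 in TC2289, near its median of 6.92 over the tumors. It was between 16.8 and 19.24 in TC1020, TC1936, TC1601 and TC1473, and 12.9 in TC22 and 11.94 in TC812. Another marker, *RET*, was at 13.54 in TC2289 and between 13.0 and 14.49 in TC1020, TC1936, TC1601 and TC1473. The score of TC2289 thus does not rest on *CALCA*. In bulk tissue, fewer cells of a type and less RNA per cell cannot be told apart.

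Axon guidance proteins were first described as cues that attract or repel growing nerve fibers. Secreted netrins, slits and class 3 semaphorins act at a distance, while ephrins and most other semaphorins sit on the cell surface and act between touching cells. The same proteins guide blood vessel growth, with *PLXND1*, *ROBO4*, *EFNB2* and *EPHB4* among the best known endothelial members, and they regulate adhesion and migration in epithelia and tumors.

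All 60 members had at least 10 counts in at least 5 tumors, and 40 of them (66.7%) had at least 10 counts in every tumor, as did 59.8% of the 18711 genes that passed this filter. The median variance of the members' levels over the 30 tumors was 1.68, against 0.90 over all genes that passed, and 49 of the 60 (81.7%) lay above that value for all genes. The median range of a member, from its lowest to its highest tumor, was 5.71 log2 units, against 4.20 for all genes. The families differed in this respect. Median variance was 0.92 in the ephrins and 1.07 in the plexins. It was 3.04 in the ephrin receptors and 4.91 in the netrin receptors. For the pair of netrins it was 7.25, which is only the midpoint between *NTN1* at 13.09 and *NTN4* at 1.41.

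**Figure D1:**
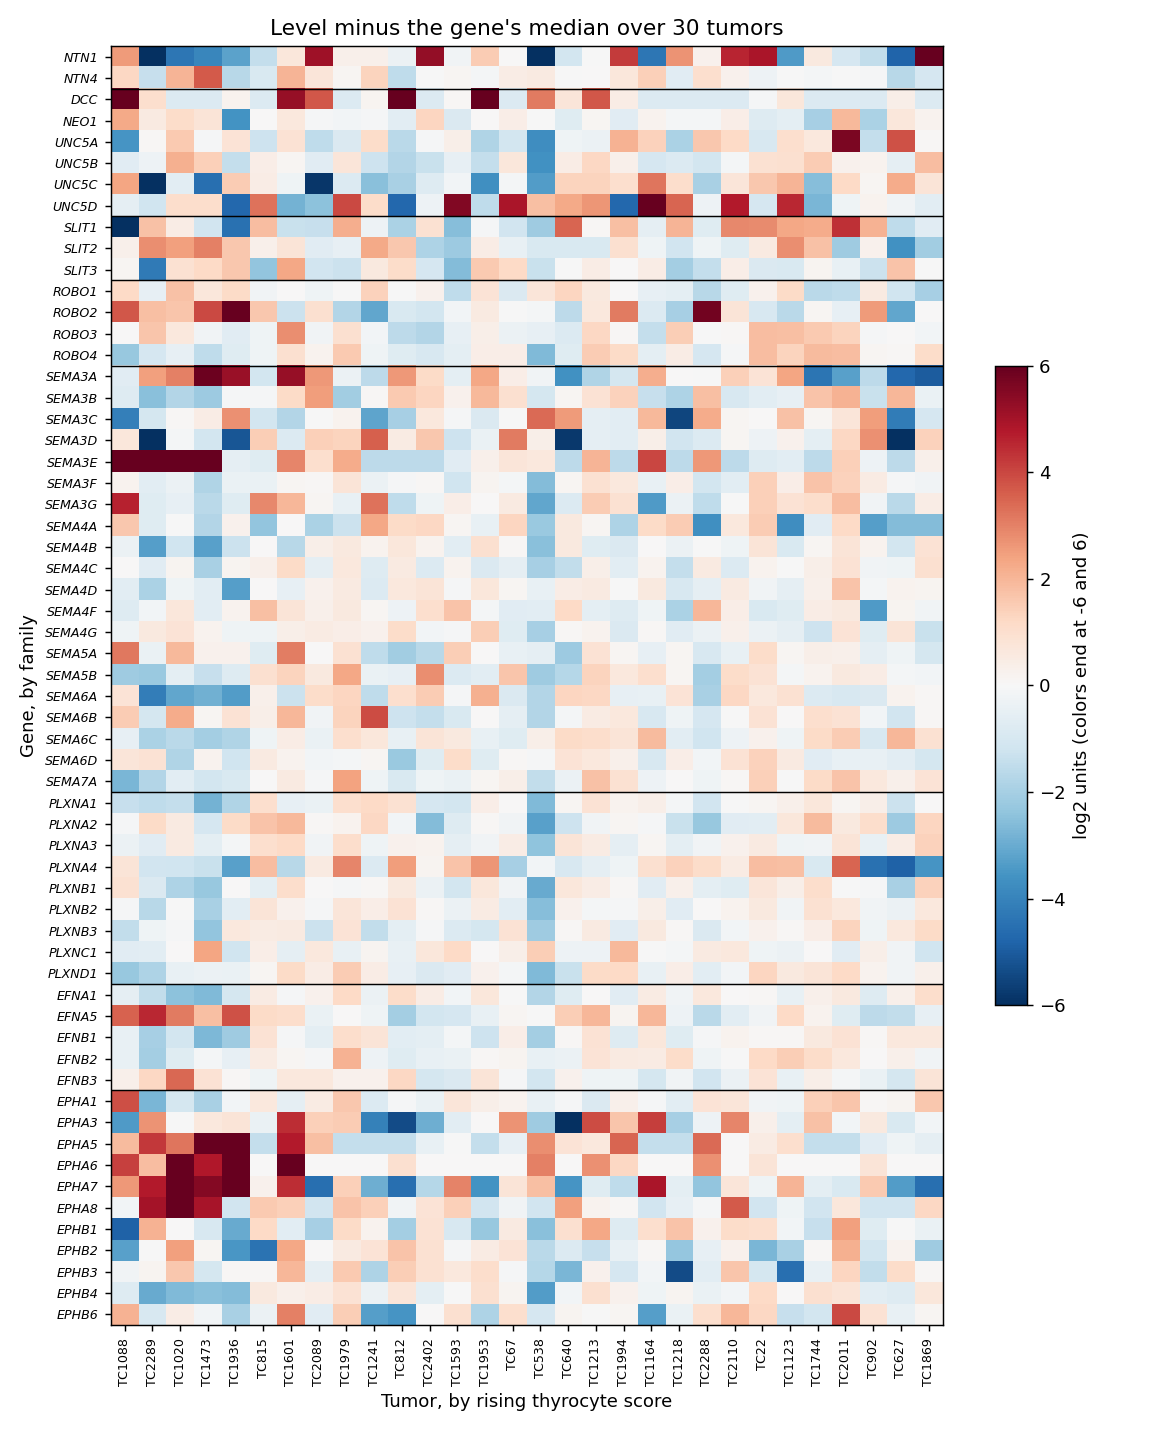
Level of each of the 60 members (rows, by family) in each of the 30 tumors (columns, by rising thyrocyte score), minus the gene's median, in log2 units. Rows of the plexins and ephrins are mostly pale, while *NTN1* reaches both ends of the scale, which stops 6 units above and below the median, and *SEMA3E* and *EPHA7* reach its upper end.

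A mean level above 2 together with a variance above 6, the limits the study set for variable genes, was met by 9 of the 60 members (15%) and by 4.06% of all genes that passed the count filter. The 9 members were *NTN1*, *EPHA7*, *SEMA3E*, *UNC5D*, *SEMA3A*, *EPHA3*, *EPHA5*, *SEMA3D* and *UNC5C*. *UNC5C* was just inside the limit, with a variance of 6.08, and *ROBO2* just outside, with 5.69. *DCC* varied by 8.27 but had a mean level of 1.89. The count rests in part on low values: with a pseudocount of 8 in place of 1, 3 members and 1.49% of all genes met the limits.

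**Figure D2:**
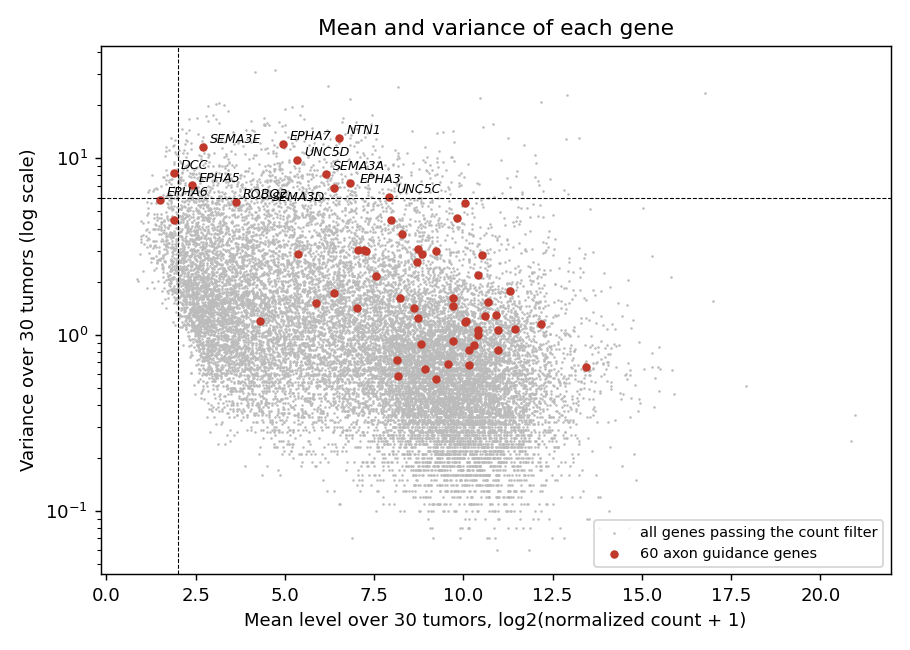
Mean level (horizontal axis, log2 of normalized count plus 1) and variance (vertical axis, log scale) over 30 tumors for the 60 members in red and all 18711 genes that passed the count filter in grey. Dashed lines mark a mean of 2 and a variance of 6, and 9 members lie beyond both.

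Netrin 1, encoded by *NTN1*, is a secreted laminin-related cue and also a ligand of receptors that signal cell death when unbound. Its level had the largest variance of the 60 members, 13.09. The lowest level was 0 in TC2289 and TC538, the median 6.61, and the highest 13.99 in TC1869. TC1869 stood 2.11 above the next tumor, TC2402 at 11.88. TC2089 at 11.71, TC22 at 11.50, TC2110 at 11.19 and TC1994 at 10.81 followed closely. At the low end, TC627 had 1.81, TC1020 2.28, TC1164 2.29, TC1473 2.69, TC1123 3.20 and TC1936 3.39. High and low levels were thus found in many tumors, and TC1869 also had the highest thyrocyte score and the most counted reads. Among the low tumors, TC2289, TC1020, TC1473 and TC1936 had C cell scores of 6.58, 9.69, 8.29 and 9.48. TC538, TC627, TC1164 and TC1123 had C cell scores of 0.63, -0.44, -1.57 and -0.98. TC1601, with a C cell score of 8.61, had an *NTN1* level of 7.3. The part of C cell content in the *NTN1* level was not tested. *NTN4*, the other netrin, varied less, with a variance of 1.41.

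*DCC*, which mediates attraction to netrin 1, had no count in 14 tumors and a median level of 0.82. It was 9.97 in TC1088, 8.61 in TC812, 8.12 in TC1953 and 6.05 in TC1601. The same 4 tumors had *NTN1* levels of 9.19, 6.28, 8.12 and 7.30. *UNC5D*, a repulsive netrin receptor, ranged from 0 in TC1936, TC1994 and TC812 through a median of 4.69 to 11.70 in TC1164, followed by 10.23 in TC1593, 9.61 in TC67 and 9.47 in TC2110. *UNC5C*, of the same family, was also highest in TC1164, at 11.63, with a median of 8.41. Its lowest level, 1.83, was in TC2289, followed by 2.56 in TC2089 and 3.87 in TC1473. TC1088 and TC627 reached 10.78 and 10.65 for *UNC5C* but only 4.16 and 4.48 for *UNC5D*.

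*SLIT1*, a secreted repellent read by the robo receptors, was detected in every tumor, from 3.90 in TC1088 through a median of 9.86 to 14.24 in TC2011. TC640 at 13.37, TC2110 at 12.74 and TC22 at 12.70 came next, and TC1936 had the second lowest level, 5.40. The robo receptor *ROBO2* had a median of 3.13 and no count in TC1241 and TC627. Its highest levels were 9.79 in TC1936, 8.94 in TC2288, 7.10 in TC1473 and 6.85 in TC1088. TC1936 and TC1088 were therefore low for the ligand *SLIT1* and among the highest for *ROBO2*. The other tumors named for *ROBO2* did not differ in this way. *SLIT1* was 9.11 in TC2288 and 8.7 in TC1473, and 9.57 in TC1241 and 8.34 in TC627. A correlation of *SLIT1* with *ROBO2* was not tested. *ROBO1*, the next gene to *ROBO2* in the gene order, had a variance of 1.06, with levels between 8.46 in TC1869 and 12.21 in TC1020.

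The class 3 semaphorins are secreted and bind neuropilin and plexin receptors, and 4 of them were among the 15 members with the largest variance. *SEMA3E*, the ligand of *PLXND1* in vessel patterning, had no count in 9 tumors and a median level of 1.57. Its highest levels were 12.56 in TC2289, 11.78 in TC1020, 8.42 in TC1473, 7.53 in TC1088, 5.57 in TC1164 and 4.49 in TC1601. TC1936, with a C cell score of 9.48, had a *SEMA3E* level of 1.04. The first 3 of these tumors had C cell scores of 9.69 (TC1020), 8.29 (TC1473) and 6.58 (TC2289), while TC1088 had -0.13. The part of C cell content in the level was not tested.

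*SEMA3A*, a repellent of axons and endothelial cells, ranged from 0.91 in TC1869 through a median of 5.90 to 11.80 in TC1473. TC1601 at 11.14 and TC1936 at 11.08 were close to TC1473, and TC1020 followed at 8.92. These 4 tumors had C cell scores between 8.29 and 9.69. TC812 and TC2089 came next, both at 8.5, with C cell scores of 0.75 and -0.17. TC2289, with a C cell score of 6.58, had a *SEMA3A* level of 8.38. TC1123 at 8.28 and TC1953 at 8.24 were close to it, with C cell scores of -0.98 and -0.33. The part of C cell content was not tested here either. At the low end TC627 had 1.17, TC1744 1.52, TC640 2.28 and TC2011 2.63. *SEMA3D* had a median of 6.77, with 10.34 in TC1241, 9.90 in TC67 and 9.52 in TC902. It had no count in TC2289 and TC627, and was at 0.97 in TC640 and 1.64 in TC1936. *SEMA3C* ranged from 2.71 in TC1218 through 8.19 to 11.61 in TC538, with 10.93 in TC1936, 10.74 in TC640 and 10.72 in TC902. *SEMA3E*, *SEMA3A* and *SEMA3D* follow each other in the gene order, and their highest tumors were 3 different ones: TC2289, TC1473 and TC1241.

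Among the plexins, *PLXNA4*, which transmits semaphorin 3A and class 6 semaphorin signals, had the largest variance, 4.59. Its level ranged from 5.07 in TC627 through a median of 9.92 to 13.42 in TC2011. TC1979 at 12.84, TC1953 at 12.58 and TC812 at 12.45 were next, and TC902 at 5.45, TC1869 at 6.38 and TC1936 at 6.66 were low. TC2011 was the highest tumor for 7 of the 60 members (11.7%), *SLIT1*, *UNC5A*, *PLXNA4*, *PLXNB3*, *EPHB1*, *EPHB6* and *SEMA4D*, and for 3.88% of all genes. This list was drawn up after the values were seen. In *UNC5A* TC2011 had 13.89, 1.85 above TC627 at 12.04, with a median of 8.22 over the 30 tumors.

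**Figure D3:**
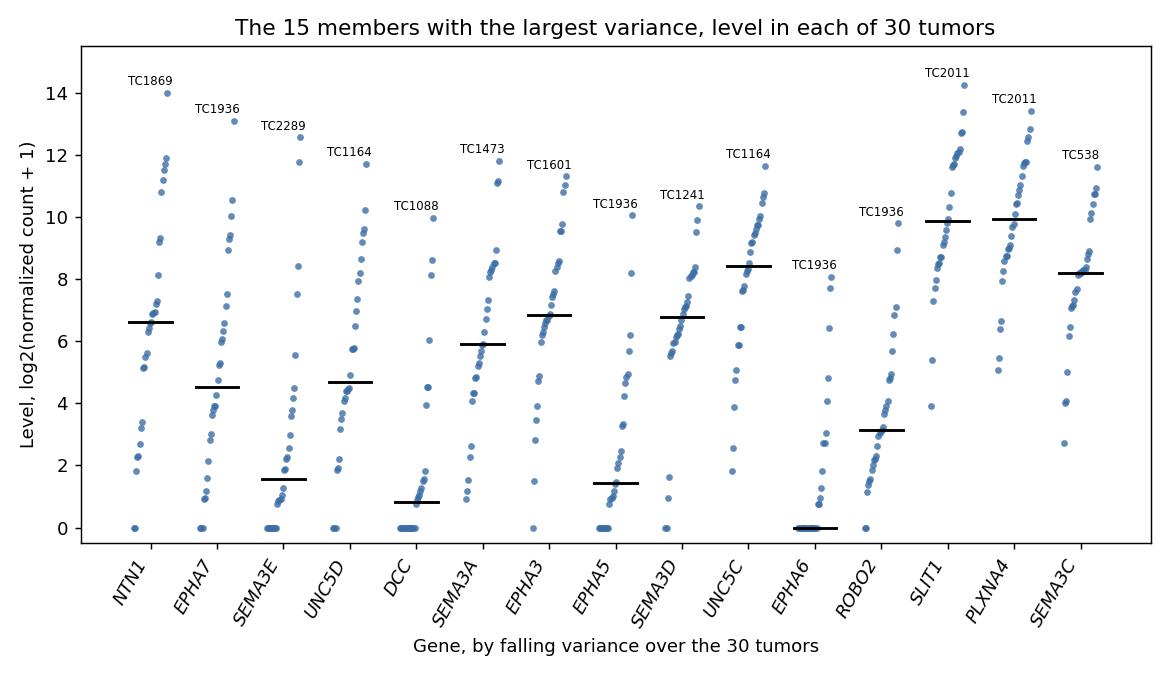
Level (vertical axis, log2 of normalized count plus 1) of the 15 members with the largest variance, 1 point for each of 30 tumors, sorted within each gene, with the median as a black bar and the highest tumor named. *DCC*, *EPHA6*, *SEMA3E* and *EPHA5* are at 0 in 9 or more tumors and reach 8.06 or more in others, and *EPHA7* and *NTN1* each have 1 tumor more than 2 units above the next.

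The Eph receptors, a large group of receptor tyrosine kinases, gave 4 of the 15 members with the largest variance. *EPHA7* ranged from 0 in TC1869, TC2089 and TC812 through a median of 4.51 to 13.09 in TC1936. TC1936 stood 2.54 above the next tumor, TC1020 at 10.54. TC1473 at 10.02, TC1164 at 9.43, TC2289 at 9.29 and TC1601 at 8.95 followed, and TC1593 came next at 7.51. Of these 7 tumors, TC1936, TC1020, TC1473, TC2289 and TC1601 had the 5 highest C cell scores, whereas TC1164 and TC1593 had C cell scores of -1.57 and -0.97.

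*EPHA5* had no count in 9 tumors and a median of 1.44. It was 10.05 in TC1936, 8.20 in TC1473, 6.21 in TC1601, 5.67 in TC2289, 4.93 in TC1994, 4.86 in TC2288 and 4.65 in TC1020. *EPHA6* had no count in 17 tumors, and was 8.06 in TC1936, 7.70 in TC1601, 6.43 in TC1020, 4.82 in TC1473 and 4.08 in TC1088. In TC2289 the *EPHA6* level was 1.83, below the limit of 2.28 that a count of 0 allows there. *EPHA3* behaved otherwise. It was highest in TC1601 at 11.30, TC1164 at 11.02, TC1213 at 10.79 and TC2110 at 9.78, with a median of 6.85. It was 0 in TC640, 1.5 in TC812 and 2.81 in TC1241. *EPHA5*, *EPHA6* and *EPHA7* were therefore highest in the same tumor, TC1936, while *EPHA3* was 7.63 there. The C cell score of TC1936 was 9.48, its thyrocyte score -4.38 and its parathyroid score 6.08, and the part of each in these levels was not tested. The parathyroid score rests on 3 markers. It was also 5.22 in TC1473, 4.07 in TC1020, 3.24 in TC2289 and 3.07 in TC1601, so it was not read apart from the C cell score.

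In 4 of the 60 members (6.67%) the highest tumor lay at least 2 log2 units above the next and had at least 50 counts, as in 3.71% of all genes that passed the count filter. Besides *NTN1* in TC1869 and *EPHA7* in TC1936, these were *EPHA1* and *EFNB3*. With a gap of 3 units required, the count was 0. *EPHA1*, an Eph receptor of epithelia, ranged from 6.81 in TC2289 through a median of 9.58 to 13.45 in TC1088. TC2011 at 11.25, TC1979 at 11.20, TC1869 at 11.18 and TC1744 at 11.01 followed close together. *EFNB3*, a transmembrane ephrin, ranged from 7.57 in TC2288 through 8.71 to 12.14 in TC1020, with TC812 next at 9.96 and TC2289 at 9.94.

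The 3 genes on each side of these members in the gene order were read in the same tumor. Around *EPHA1* in TC1088, the taste receptor gene *TAS2R41* was at 6.18 and the olfactory receptor genes *OR2R1* and *OR10AC1* at 6.5 and 5.12. Their median in the other tumors was 0 and their highest level elsewhere 2.20, 2.28 and 1.5. On the other side *ZYX*, encoding the focal adhesion protein zyxin, was at 11.53, against a median of 9.77 and a highest level of 11.28 elsewhere. Around *EFNB3* in TC1020, *ATP1B2*, a sodium pump subunit, was at 10.28 and *SHBG*, which encodes sex hormone binding globulin, at 6.73, with medians elsewhere of 4.23 and 1.5. Both were at their highest in TC1020, although *ATP1B2* reached 9.99 in another tumor, and the dynein gene *DNAH2* was second highest there. None of the genes beside *NTN1* in TC1869 or beside *EPHA7* in TC1936 was at its highest in that tumor. The strand setting of the counting is not given in the sources used here, so reads of overlapping or antisense transcripts cannot be assigned with certainty.

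The members with the smallest variance among those with a median of at least 100 normalized counts were *PLXNA3* (0.56), *SEMA4G* (0.58), *EFNB2* (0.64), *PLXNB2* (0.66) and *SEMA4C* (0.67). *PLXNB2*, a receptor of class 4 semaphorins, ranged from 10.96 in TC538 through 13.51 to 14.42 in TC1744. *PLXNA3*, a plexin used by secreted semaphorins, ranged from 6.76 in TC538 through 9.18 to 10.58 in TC1869. *SEMA4C*, a ligand of *PLXNB2*, lay between 8.40 in TC538 and 11.53 in TC1601, and *SEMA4G*, another membrane semaphorin, between 6.25 in TC538 and 9.71 in TC1953. TC538 was thus the lowest tumor for 4 of these 5 genes. It was the lowest tumor for 13 of the 60 members (21.7%) and for 18.5% of all genes, and TC2289 for 8 members (13.3%) and 5.76% of all genes. Both libraries were low in the plexins *PLXNA3*, *PLXNB2* and *PLXND1*.

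To ask how the members varied with the cell makeup of the tumors, each gene was correlated with 5 marker scores. Correlations were computed over the 25 tumors on the larger of the 2 main branches of a hierarchical clustering from which the members were left out. TC1020, TC1473, TC1601, TC1936 and TC2289 formed the smaller branch and are given as values. With the endothelial score, a mean over 12 vessel markers that included no member, 9 of the 60 members (15%) were positively correlated at an adjusted p below 0.05, and 3.63% of all genes were. These were *PLXND1*, *ROBO4*, *SEMA7A*, *EFNB2*, *ROBO3*, *SEMA3F*, *EPHB4*, *UNC5B* and *SEMA6B*. *SEMA6B* passed narrowly (rho 0.58, adjusted permutation p = 0.0491). *ROBO3*, next to *ROBO4* in the gene order, had a median of only 15.8 normalized counts. Negative correlations were called for 0 members and 2.26% of all genes, and 0 members had a negative rho at an unadjusted p below 0.05 in the permutation test. At that unadjusted level 17 members (28.3%) were positive, against 12.5% of all genes, and 13.6% of all genes were negative. The median rho was 0.14 over the members and 0.02 over all genes.

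*PLXND1*, the semaphorin receptor of endothelium, correlated with the endothelial score at Spearman's rho 0.96 and Pearson's r 0.96 (n = 25, permutation p = 1e-05 for each, the smallest that the permutations can give; adjusted p = 0.00113). Its level over the 30 tumors was lowest in TC538, at 8.39, had a median of 11.02, and was highest in TC1979, at 12.57. TC538 and TC1088 had the lowest endothelial scores of the 25, -1.87 and -1.79, and without these 2 tumors r was 0.94. *ROBO4*, the endothelial robo, ran from 5.95 in TC538 through 8.59 to 10.47 in TC1744, with rho 0.95 and r 0.95 (permutation p = 1e-05, adjusted p = 0.00113), and r was 0.93 without TC538 and TC1088. On the smaller branch, TC2289 had the lowest endothelial score, -2.36, with *PLXND1* at 9.17 and *ROBO4* at 7.59, and TC1601 the highest, 0.44, with 12.17 and 9.57.

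*SEMA7A*, a semaphorin anchored to the membrane by a lipid and known from immune cells and vessels, ranged from 7.28 in TC1088 through 10.03 to 12.43 in TC1979. Its rho with the endothelial score was 0.86 and its r 0.87 (permutation p = 1e-05, adjusted p = 0.00113), with r 0.81 without TC538 and TC1088. *EFNB2*, the ephrin of arterial endothelium, ranged from 6.76 in TC2289 through 8.81 to 10.91 in TC1979. Its rho was 0.85 and its r 0.79 (permutation p = 1e-05, adjusted p = 0.00113), with r 0.80 without the same tumors. The other 5 members called had rho between 0.58 and 0.79. Without TC538, 7 of the 9 were still called, and without TC1088 all 9, with 2 further members. Which cells of the tumors held the transcripts was not measured.

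**Figure D4:**
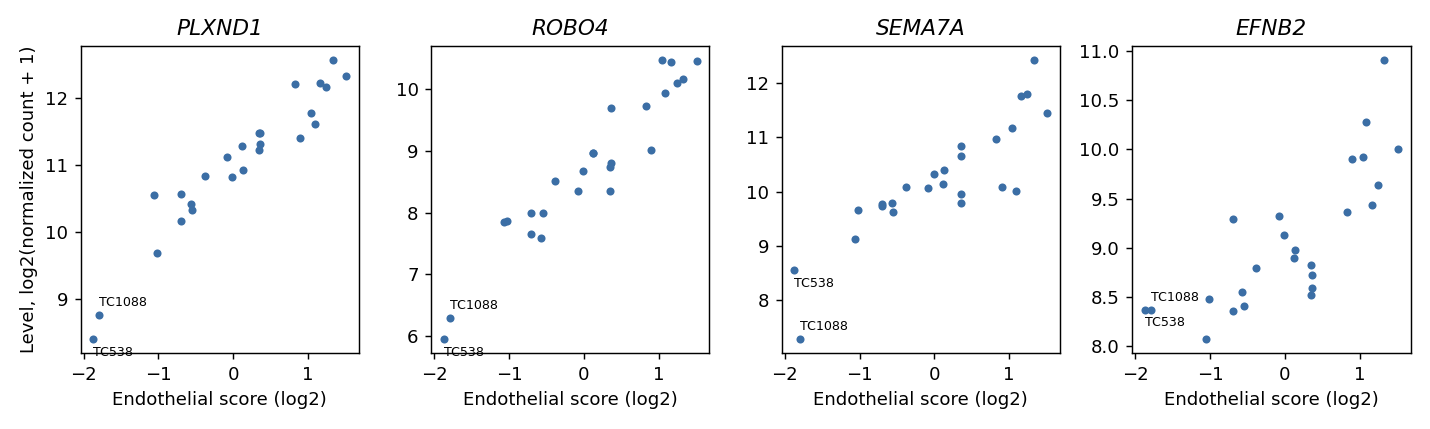
Level (vertical axes, log2 of normalized count plus 1, a separate range for each gene) against the endothelial marker score (horizontal axes, log2 units) in the 25 tumors of the larger branch, 1 point per tumor. Levels of *PLXND1*, *ROBO4*, *SEMA7A* and *EFNB2* rise with the score, and TC538 and TC1088 lie at its low end.

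With the score of 12 fibroblast and mural cell markers, 2 of the 60 members (3.33%) were positively correlated, against 0.711% of all genes, and 8 (13.3%) had a positive rho at an unadjusted p below 0.05, as did 6.35% of all genes. *EPHA3*, known from mesenchymal cells, had rho 0.74 and r 0.75 (n = 25, permutation p = 2e-05 and 5e-05, adjusted p = 0.00813), and r was 0.66 without TC1088 and TC640. *SEMA7A* had rho 0.69 and r 0.61 (permutation p = 0.00025 and 0.0013, adjusted p = 0.0402). This call was lost without TC1088, where rho was 0.64 and the adjusted p 0.0971. With r in place of rho its adjusted p was 0.132, and with every gene that had any count in the test it was 0.0577. The calls were not particular to 1 score. *EPHA3* had rho 0.50 with the endothelial and 0.48 with the macrophage score, and *SEMA7A* 0.65 with the macrophage score. *PLXND1* and *ROBO4* had 0.59 and 0.60 with the fibroblast and mural score. None of these passed the adjustment, and overlap between the scores was not tested. TC1601, on the smaller branch, had both the highest fibroblast score of the 30 tumors, 2.64, and the highest *EPHA3* level. Negative correlations with this score were called for 0 members and 0.00535% of all genes, and 0 members passed at an unadjusted p below 0.05, against 3.5% of all genes.

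No member was called with the other 3 scores. For the lymphocyte score, 0 members were called in either direction, as were 0% of all genes, and the permutation test gave an unadjusted p below 0.05 for 2 members with positive and 1 with negative rho (2.57% and 2.67% of all genes). Because no gene at all was called with it, this score cannot show whether the members follow lymphocytes. For the macrophage score, 0 members were called positive against 0.433% of all genes, and 0 negative against 0% of all genes, with 10 (16.7%) and 0 members at an unadjusted p below 0.05 by the same test (6% and 3.52% of all genes). For the thyrocyte score the counts were 0 positive against 0.182% of all genes and 0 negative against 0.107%, with 5 and 1 members at an unadjusted p below 0.05 (5.48% and 5.53% of all genes). Scores of C cell, Schwann cell, skeletal muscle and parathyroid markers were read as values per tumor only. The Schwann cell score lay between -1.17 and 1.47. The muscle score reached 5.07 in TC2089 and 4.06 in TC2402, and the parathyroid score 8.42 in TC2288.

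**Figure D5:**
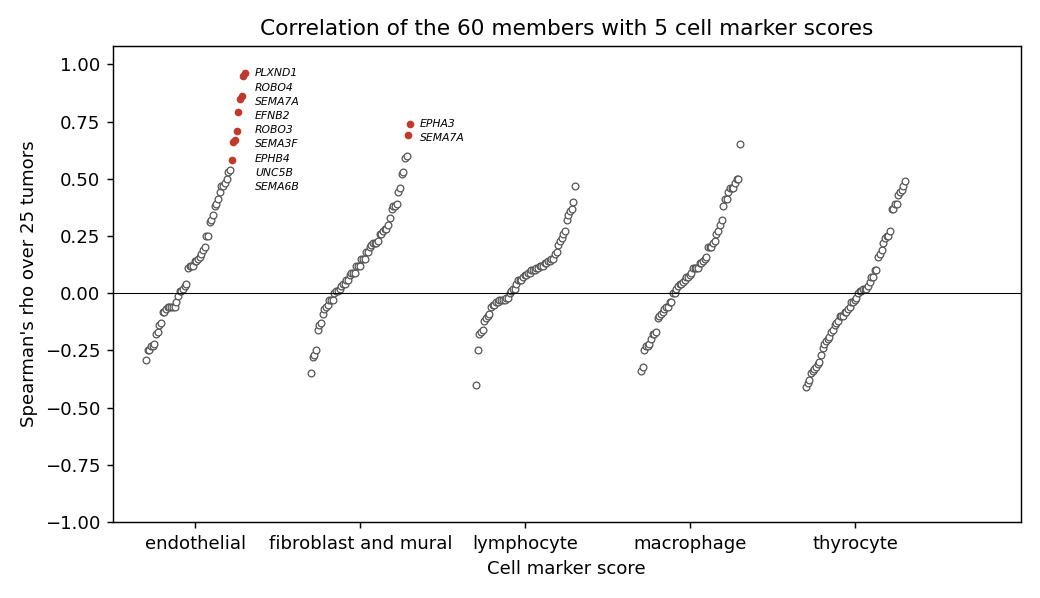
Spearman's rho over 25 tumors (vertical axis) of the 60 members with each of 5 cell marker scores (horizontal axis), sorted within each score. Filled red points mark the 9 members called with the endothelial score and the 2 called with the fibroblast and mural score, with their names in falling order of rho, and open points those not called.

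Ligands and receptors known to bind each other were compared next, in 24 pairs with 21 receptors, over the same 25 tumors. Each pair was judged among all genes tested against its receptor. At an adjusted p below 0.05, 2 of the 24 pairs (8.33%) were called, and 6.79% of all genes were called with these receptors, so the share among the pairs was near that of genes in general. With 10 of the 21 receptors no gene at all was called, so the adjusted test cannot show whether their ligands follow them. The median rho was 0.15 over the pairs and 0.01 over all genes. Of the rho values 18 were positive and 5 negative, *SEMA3E* and *PLXND1* had 0.00, and the range was -0.25 to 0.56.

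*EFNB2* and its receptor *EPHB4*, a receptor of venous endothelium, had rho 0.56 and r 0.46 (n = 25, permutation p = 0.00382 and 0.0223, adjusted p = 0.0184 for rho and 0.0503 for r). *EPHB4* ranged from 6.66 in TC538 through 10.03 to 11.23 in TC22, and without both tumors r was 0.42. With *EPHB4*, 30.4% of all genes were called. Both genes were also correlated with the endothelial score, and its part in the pair was not tested. *SEMA4C* and *PLXNB2* had rho 0.51 and r 0.64 (permutation p = 0.00944 and 0.00041, adjusted p = 0.0403 for rho), with r 0.45 without TC538 and TC1744. The call was lost without TC538, where rho was 0.45 and the adjusted p 0.106. With *PLXNB2*, 26% of all genes were called.

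A further 4 pairs, named after their values were seen, had an unadjusted permutation p below 0.05 for rho without passing the adjustment (n = 25). *SEMA3A* and *PLXNA4* had rho 0.52 and r 0.56 (permutation p = 0.00859 and 0.00373, adjusted p = 0.895), and 0 of 18710 genes were called with *PLXNA4*. *SEMA5B* and *PLXNA3* had rho 0.45 (permutation p = 0.0253, adjusted p = 0.0831), *EFNA1* and *EPHA1* 0.42 (permutation p = 0.0365, adjusted p = 0.608), and *SLIT2* and *ROBO1* 0.41 (permutation p = 0.0452, adjusted p = 0.603). *NTN1* was not correlated at this level with *DCC* (rho -0.09), *NEO1* (0.07) or *UNC5B* (0.10), with permutation p of 0.653, 0.751 and 0.626.

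Other genes of the pathway were taken from a list of 27 co-receptors, cofactors and intracellular effectors. Of these 25 were in the table, 23 passed the count filter, and 3 met the limits for variable genes, which 4.06% of all genes met: *L1CAM*, *CRMP1* and *NTNG1*. *L1CAM*, a neural adhesion molecule, ranged from 0 through 6.19 to 13.11 in TC1020. *CRMP1*, a mediator of semaphorin signals inside the cell, ranged from 1.46 through 3.34 to 11.45, also in TC1020. *NRP1*, the neuropilin that binds class 3 semaphorins, lay between 11.88 and 15.24, with a variance of 0.54, and the GTPase *RAC1* between 11.02 and 12.62, with a variance of 0.14. The median variance over the list was 1.05, against 1.68 over the members. Of the 23 genes, 2 were called positive with the endothelial score, *SRGAP1* and *NTNG2* (8.7%, against 3.63% of all genes).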

How the data were processed

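Total RNA of 30 primary canine thyroid tumors was sequenced after removal of ribosomal RNA. The authors mapped paired-end reads with STAR to CanFam3.1 and deposited raw counts per gene, with no normalization. The strand setting of the counting is not given in the sources used here. The table held 0 columns of no sample and 0 pairs of tumors with identical counts.

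Counts were divided by median-of-ratios size factors over 15611 genes and log2 transformed with a pseudocount of 1. TMM factors of edgeR 4.0.16 in R 4.3.3 were an alternative. Scripts ran in Python 3.11.15 (scipy 1.17.1, numpy 2.4.6, pandas 2.3.3, matplotlib 3.10.9). Tumors were divided into 2 Ward branches on 755 variable genes without the members. Spearman's rho was tested with 100000 two-sided permutations of the 25 tumors, with Benjamini-Hochberg adjustment over every gene that reached 10 counts in 5 or more tumors, and the genes of a marker list were left out of its test. Pearson's r was repeated without the 2 tumors farthest from the median of the score or receptor. The permutation scan was tested on simulated data. Gene order came from a RefSeq table of UU_Cfam_GSD_1.0, matched by symbol, and no coordinates were used.

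Genes named in full are the 15 members with the largest and the 5 with the smallest variance, members with 1 tumor apart, called pairs, and for each score the 4 called members with the highest and the 4 with the lowest rho. Members and lists were chosen with earlier results of these data known. Counts of Eph receptors and other paralogs can share reads. Alternatives were TMM, a pseudocount of 8, other count filters and limits, Pearson's r, and leaving out TC1088 or TC538.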

Additional observations from a re-analysis of the deposited data

How the results depend on the processing

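Members meeting the limits for variable genes fell from 9 to 3 with a pseudocount of 8, and members with 1 tumor apart from 4 to 0 with a gap of 3. Members called with the fibroblast and mural score fell from 2 to 1 when every gene with any count was tested and to 1 with Pearson's r, and pairs called from 2 to 1 without TC538. Members called with the endothelial score numbered 7 to 13 over 7 alternatives, with 0 negative in each. The correlation coefficient changed sign, without passing the test, for *SEMA3E* and *PLXND1* (0.01 with TMM, 0.13 without TC1088, 0.04 without TC538), *SEMA4D* and *PLXNB1* (-0.02, to 0.11 with TMM and 0.07 without TC1088 and with Pearson's r), *NTN1* and *DCC* (0.00 with Pearson's r) and *NTN1* and *UNC5B* (-0.02 without TC538). *SEMA5B* and *PLXNA3* passed with TMM (rho 0.50, adjusted p = 0.0454) and Pearson's r, and *SEMA3F* and *PLXNA3* with Pearson's r (0.49, adjusted p = 0.0485), all from permutations of 25 tumors. The latter rests on TC538 and TC1869: without them r was 0.20, and without TC538 rho was 0.04. With TMM, *UNC5A* also had 1 tumor apart. The cause was not tested. The smaller branch held the same 5 tumors in 4 settings. The shallowest library, TC538, limits levels below 3.56. No paired analysis was possible because the labels give no groups.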

Other observations

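In 4 further members a few tumors, which the labels put in no group, lay at one end of the range, and whether they form separate clusters was not tested. *EPHA8*, an Eph receptor, was 8.12 in TC1020, 6.18 in TC2289, 6.13 in TC1473, 4.85 in TC2110 and 3.65 in TC640, and at most 2.90 in the other 25 tumors. *EFNA5*, an ephrin ligand of the *EPHA* receptors, was 9.45 in TC2289, 8.73 in TC1936, 8.44 in TC1088, 8.01 in TC1020 and between 2.89 and 6.90 in the other tumors. *SEMA6A* was lowest in TC2289 at 4.87, TC1936 at 5.69, TC1020 at 5.93 and TC1473 at 6.15, and 7.09 or more in the rest. *EPHB4* was 6.66 in TC538, 7.00 in TC2289, 7.39 in TC1020, 7.44 in TC1936 and 7.50 in TC1473, and at least 9.23 in the remaining 25 tumors. TC1601, which shares the smaller branch with TC1020, TC1473, TC1936 and TC2289, had *EPHA8* at 2.62, *EFNA5* at 5.97, *SEMA6A* at 7.74 and *EPHB4* at 10.32. These 4 genes were chosen after their values were seen. The distance to the next tumor was widest in *EPHB4*, and *EPHA8* was near the count floor in most tumors.

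The pathway gene *DPYSL5* did not pass the count filter, with levels between 0 and a single high value of 7.81 in TC1473.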
